A study of Mus musculus with 12 samples.

Results

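The effect of activated NRas was examined on an Ezh2-deleted background, by comparing the 3 libraries labelled G12D_E2-KO with the 3 labelled E2-KO. These 6 of the 12 libraries of the series were chosen by genotype alone, with no measured value used, and they held 17403 of the 32701 cells analysed. The E2-KO mice carried Ezh2 f/f with Mx1-Cre, and the G12D_E2-KO mice carried Ezh2 f/f and NRas G12D+/- with Mx1-Cre. Deletion of Ezh2, the Cre and the injections of pIpC, a synthetic double-stranded RNA whose interferon response induces Mx1-Cre, were thus shared by both groups, and the NRas allele alone set them apart by label. The other 6 libraries are WT, without Mx1-Cre, and G12D, with Mx1-Cre and NRas G12D+/-. Mice were injected at 8 to 12 weeks of age. Their marrow was taken at 2 weeks (T1), 2 months (T2) or 4 months (T3) after pIpC, enriched for c-Kit+ cells with magnetic beads, and sequenced as single cells with 1 library per genotype and time point. A time point is therefore at once the replicate and a stage of disease, so p-values measure the spread between these libraries. Mx1-Cre also acts in other interferon-responsive cells, so the alleles are not limited to the blood.

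Nras encodes a small GTPase that passes signals from cytokine receptors to the RAF, MEK and ERK kinases, and the G12D form stays in its active, GTP-bound state. Ezh2 encodes the methyltransferase of Polycomb repressive complex 2 (PRC2), which places a repressive methyl mark on histone H3 and keeps lineage genes silent. In marrow, active RAS is known for driving granulocyte and monocyte output, and PRC2 for supporting early B cell development. The comparison addresses the question that the combined mice pose, namely what the oncogene adds where Ezh2 is deleted as well. The same pIpC induces both changes, so no order between them was examined.

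Each library held between 12.64 and 22.28 M UMIs (unique molecular identifiers, each marking 1 captured RNA molecule) from 2445 to 3767 cells. The median cell had between 3780.5 UMIs in E2-KO T3 and 6543 in E2-KO T1, and mitochondrial genes took 3.49 to 5.75% of a library's UMIs. Of the cells deposited for G12D T1, 2896 were also found in the table of G12D_E2-KO T1, where they made up 95.1% of the cells. They held 20.9 CPM of Ezh2, as the Ezh2-deleted libraries do, against 86.3 CPM in the other cells of G12D T1, and they were counted in G12D_E2-KO T1. CPM means UMIs of a gene per M (1000000) UMIs of the library. Kit, the receptor used for enrichment, was present at 45.1 to 80.9 CPM in the 6 libraries. Xist, which female cells transcribe, stood at 1347 CPM in E2-KO T3 and at most 0.314 CPM in the other 5, so the pair at T3 also differed in sex and those at T1 and T2 did not. WT T3 and G12D T3 had 1296 and 1357 CPM, so G12D_E2-KO T3 was the only T3 library with little Xist. Sex thus cannot be told apart from that library in tests that use all 12 libraries, including the interaction. In counts summed over a library, fewer cells of a type and less RNA per cell cannot be told apart. The cell classes described further on were used to look inside each type, though the make-up of a class can still differ between groups.

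The targeted genes were examined first. Ezh2 (GRCm38 chromosome 6, 47530139 to 47595341) stood at 27.7, 27.9 and 34.6 CPM in the E2-KO libraries of T1, T2 and T3 and at 20.7, 25.3 and 22.4 CPM in G12D_E2-KO, against 81.7 to 103 CPM in G12D and 103 to 133 CPM in WT. All 6 libraries were thus low, and those with NRas G12D were lower than all 3 without it (log2 change -0.44, SE 0.16, adjusted p = 0.18 in edgeR). Within 8 cell classes the difference ran from -0.53 in Meg to 0.15 in late GN and passed the test in 0 of 8. Nras (chromosome 3, 103058285 to 103067914) had 61.6, 67.6 and 52.5 CPM in E2-KO and 68.1, 59.6 and 76.9 CPM in G12D_E2-KO, with ranges that overlapped (log2 change 0.13, SE 0.12, edgeR adjusted p = 0.603). The 3' reads count neither the deleted part of Ezh2 nor the altered base of Nras. They therefore do not check the alleles themselves.

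Over all cells, 12 of 12848 genes tested (0.0934%) passed an adjusted p of 0.05 in edgeR's quasi-likelihood test. In G12D_E2-KO, 9 rose (0.0700% of the genes tested) and 3 fell (0.0233%). In all 12 the libraries of the groups did not overlap, where 11% of all genes were higher and 7.43% lower without overlap. The 12 were picked by the test on the same libraries, so this is no added support. Without adjustment, 2452 genes (19.1%) had a p under 0.05, which is 1264 higher (9.84%) and 1188 lower (9.25%). DESeq2 called 694 genes in the same design, 354 higher and 340 lower, including all 12. The number called by edgeR depended on single libraries: it was 0 without E2-KO T1, 3 without E2-KO T2, 5 without E2-KO T3, 30 without G12D_E2-KO T1, 467 without G12D_E2-KO T3, 75 without G12D T2 and 20 without WT T1. Without both T3 libraries, which differ in sex, 325 genes passed. Every one of the 12 kept its direction in each alternative that measured it. The plot of called genes gives the levels of 7 of them by library.

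**Figure D1:**
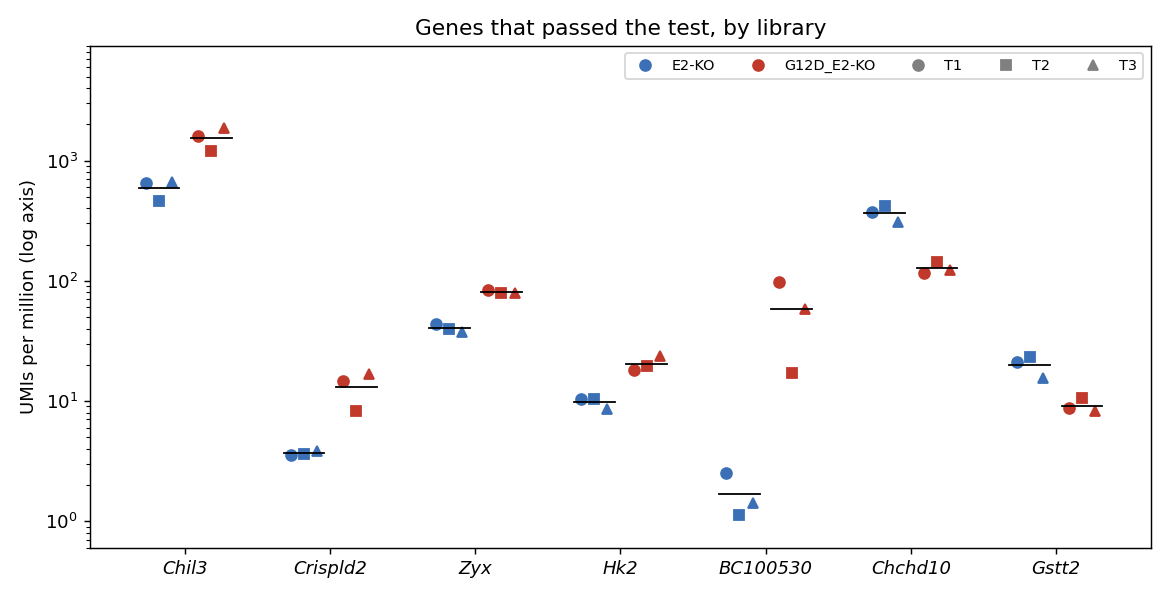
Level (CPM, log axis) of 7 genes that passed the test over all cells, in the 3 E2-KO and the 3 G12D_E2-KO libraries, 1 point per library and time point, with a black line at the mean of each group. In all 7 the points of both groups lie apart, higher in G12D_E2-KO for Chil3, Crispld2, Zyx, Hk2 and BC100530 and lower for Chchd10 and Gstt2.

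The most abundant of the genes that rose was Chil3, a chitinase-like protein made by maturing granulocytes (chromosome 3, 106147554 to 106167564). It stood at 651, 465 and 664 CPM in E2-KO and at 1591, 1194 and 1873 CPM in G12D_E2-KO. Its log2 change was 1.34 (SE 0.15, edgeR adjusted p = 0.00799). With Ezh2 intact the level was 1127 to 1312 CPM in WT and 1204 to 1480 CPM in G12D, so the libraries that stood apart were the 3 of E2-KO, which were lower than the other 9. Crispld2, a secreted protein that binds lipopolysaccharide, rose from 3.53, 3.62 and 3.80 CPM to 14.5, 8.19 and 16.6 CPM (log2 change 1.74, SE 0.21, adjusted p = 0.0108). With Ezh2 intact it stood at 6.66 to 10.0 CPM in WT and 6.09 to 10.3 CPM in G12D, so here too the 3 of E2-KO were lower than the other 9. Zyx, an adaptor protein of the actin cytoskeleton, had a nearly constant level within each group. It was 43.8, 39.4 and 37.6 CPM in E2-KO and 84.0, 79.1 and 79.4 CPM in G12D_E2-KO (0.97, SE 0.13, adjusted p = 0.0252).

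Hk2, the hexokinase that commits glucose to glycolysis, rose from 10.4, 10.3 and 8.62 CPM to 18, 19.4 and 23.5 CPM (log2 change 1.0, SE 0.15, edgeR adjusted p = 0.0462). It was higher in every library with NRas G12D. Among the genes that fell was Chchd10, a protein of the mitochondrial intermembrane space, with 373, 422 and 308 CPM in E2-KO and 115, 143 and 123 CPM in G12D_E2-KO (-1.57, SE 0.23, adjusted p = 0.0462). Gstt2, a glutathione transferase, fell from 21.1, 23.4 and 15.6 CPM to 8.66, 10.5 and 8.23 CPM (-1.16, SE 0.18, adjusted p = 0.0466).

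Of the genes that rose, 4 lie together on chromosome 16, in the stefin A cluster (GRCm38 chromosome 16, 36156811 to 36455392, 299 kb). Stefin A proteins inhibit cysteine proteases such as cathepsins, and granulocytes are a known source of them in mice. The cluster holds 8 genes with closely related sequences, so the assignment of reads among them is uncertain. Stfa1 had 62, 24 and 20 UMIs in the E2-KO libraries and 789, 208 and 947 UMIs in G12D_E2-KO. BC100530 went from 48, 24 and 18 UMIs to 2191, 316 and 893 UMIs, and Stfa3 from 14, 15 and 8 UMIs to 520, 34 and 125 UMIs. In each of these the lowest G12D_E2-KO library was above the highest E2-KO library, and T2 was the lowest of the 3 G12D_E2-KO libraries.

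The remaining members were almost silent in E2-KO. Gm5483 had 1, 0 and 0 UMIs in E2-KO and 151, 22 and 209 UMIs in G12D_E2-KO. Stfa2 had 1, 0 and 0 UMIs against 111, 13 and 75 UMIs, and Stfa2l1 had 0 in all 3 E2-KO libraries against 86, 16 and 91 UMIs. Taking 3 UMIs over the E2-KO group as the upper limit that a count of 0 allows, Stfa2l1 was at least 60.8-fold higher. For genes with UMIs in both groups the ratio of pooled levels was 35.7 for BC100530 (95% interval 29.0 to 44.5), 17.3 for Stfa1 (14.3 to 21.3) and 17.3 for Stfa3 (12.5 to 24.9), intervals that cover counting error only. With 1 UMI behind the E2-KO level, the ratio was 361 (64.4 to 14300) for Gm5483 and 188 (33.4 to 7470) for Stfa2. BC117090 had 1 UMI against 41 and Gm5416 had 2 against 15, and neither was abundant enough to be tested.

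Of the 6 stefin genes tested, all 6 were higher in every G12D_E2-KO library than in every E2-KO library, where 11% of all genes were, and 4 passed the test. Gm5483 and Stfa2 reached at most 0.475 and 0.0569 CPM outside G12D_E2-KO, so they passed the filter on low counts through the G12D_E2-KO libraries alone. Stfa2l1 reached at most 0.608 CPM outside G12D_E2-KO, in G12D T1, and 0 in E2-KO, so it too passed only with the G12D_E2-KO libraries. The lack of overlap of Gm5483, Stfa2 and Stfa2l1 was thus fixed by the filter and is no support. The edgeR adjusted p was 0.000794 for Gm5483, 0.00799 for Stfa2 and Stfa2l1, and 0.045 for BC100530, and it was 0.0865 for Stfa1 and 0.0738 for Stfa3. The number called among them was 0 without E2-KO T1, 2 without E2-KO T2 or E2-KO T3, 5 without G12D_E2-KO T3 and 6 without G12D_E2-KO T2. With Ezh2 intact the levels were lower. Stfa1 stood at 4.21, 8.03 and 7.01 CPM in G12D, against 35.4, 11.2 and 61.4 CPM in G12D_E2-KO. Gm5483 reached at most 0.406 CPM in G12D and at most 13.5 CPM in G12D_E2-KO. Within late GN, the class of maturing granulocytes, Gm5483 rose from 0.482, 0 and 0 CPM to 20.9, 5.98 and 130 CPM (log2 change 7.40, edgeR adjusted p = 3.81e-06) and Stfa2 from 0.482, 0 and 0 CPM to 14.8, 3.41 and 45.0 CPM (6.22, adjusted p = 0.000322). There too both passed the filter on low counts only through G12D_E2-KO, so these calls are no separate support.

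The regions at the annotated starts of these genes are shown because the neighbouring stefin genes were higher together and because their starts are near copies of each other. That of Chil3 is shown beside them for comparison. Each sequence holds 300 bases, from 250 before to 50 after the RefSeq start in GRCm38.p6, read on the strand of the gene. Capitals mark the letters TNTAAAA, which resemble the core box before many start sites, searched on both strands with no overlap with the other motifs searched.
Stfa2l1, chr16:36156561-36156860, plus strand: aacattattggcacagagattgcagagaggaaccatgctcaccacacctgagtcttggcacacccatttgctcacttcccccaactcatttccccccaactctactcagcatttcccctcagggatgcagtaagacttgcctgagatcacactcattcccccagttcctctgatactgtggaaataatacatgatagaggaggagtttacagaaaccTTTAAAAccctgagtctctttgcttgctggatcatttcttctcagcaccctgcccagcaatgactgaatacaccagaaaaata
Stfa2, chr16:36408314-36408613, minus strand: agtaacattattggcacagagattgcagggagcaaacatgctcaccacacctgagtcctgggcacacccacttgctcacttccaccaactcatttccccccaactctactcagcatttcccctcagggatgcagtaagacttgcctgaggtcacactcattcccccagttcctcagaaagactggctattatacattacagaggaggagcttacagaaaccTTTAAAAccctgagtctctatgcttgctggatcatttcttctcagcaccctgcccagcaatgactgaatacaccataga
Stfa1, chr16:36276898-36277197, plus strand: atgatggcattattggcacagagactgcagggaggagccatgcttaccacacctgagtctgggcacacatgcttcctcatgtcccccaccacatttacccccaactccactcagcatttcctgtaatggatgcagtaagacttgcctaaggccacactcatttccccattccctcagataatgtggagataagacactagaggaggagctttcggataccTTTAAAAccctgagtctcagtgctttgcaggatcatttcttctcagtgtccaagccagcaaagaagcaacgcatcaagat
Stfa3, chr16:36455343-36455642, minus strand: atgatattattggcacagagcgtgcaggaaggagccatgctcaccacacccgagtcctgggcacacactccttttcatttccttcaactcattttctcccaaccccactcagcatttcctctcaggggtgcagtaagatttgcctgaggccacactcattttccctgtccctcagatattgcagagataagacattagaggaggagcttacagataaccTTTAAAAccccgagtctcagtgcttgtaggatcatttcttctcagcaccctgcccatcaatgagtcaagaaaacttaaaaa
Chil3, chr3:106167515-106167814, minus strand: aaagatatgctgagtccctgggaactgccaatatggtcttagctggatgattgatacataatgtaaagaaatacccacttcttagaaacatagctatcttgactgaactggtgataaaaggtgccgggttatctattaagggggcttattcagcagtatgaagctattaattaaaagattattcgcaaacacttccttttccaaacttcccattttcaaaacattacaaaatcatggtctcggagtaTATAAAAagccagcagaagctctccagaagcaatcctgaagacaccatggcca

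Stfa2l1 and Stfa2 shared 90.5% of aligned bases, the other pairs of stefin starts 79.3 to 81.0%, and the stefin starts and Chil3 48.6 to 50%. All 5 regions held 1 match to TNTAAAA, which 18.9% of 32851 promoters of this length hold on either strand. It began 33, 29, 30 and 31 bases before the annotated start in Stfa2l1, Stfa2, Stfa1 and Stfa3, and 3 bases before it in Chil3. The AP-1 letters TGANTCA were found in Stfa3 only (7.81% of promoters hold them), and the PU.1-type letters GAGGAAG in Stfa1 only (13.6%). A match describes the letters and is no evidence of binding. BC100530 and Gm5483 are named without a sequence.

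Cells were then placed in 13 classes by the class of the most similar WT cell, since no annotation of single cells was used. In G12D_E2-KO the shares of early erythroid, late erythroid and B lymphoid cells were lower than in all 3 E2-KO libraries, and those of dendritic, basophil and mast, stem and progenitor, and promonocyte cells were higher. With 3 libraries a group and 13 classes, 0 classes (0.00%) passed edgeR's adjusted threshold, 5 (38.5%) had an unadjusted p under 0.05, and the smallest p that the exact sign-flip test over 3 pairs allows is 0.25.

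B lymphoid cells, which express Cd79a, Ebf1 and Pax5, made up 12.8, 13.6 and 12.4% of cells in E2-KO and 1.54, 3.93 and 0% in G12D_E2-KO. The 0 of 2617 cells at T3 allows a share of up to 0.115%. The log2 ratio was -3.59 (SE 1.17, edgeR adjusted p = 0.0869). The B share was low in other genotypes too, at 1.05, 4.15 and 1.57% in G12D, and it ran from 0.67 to 9.87% in WT. EryP/early Ery, the erythroid progenitors, made up 17.6, 21.1 and 17.8% against 6.44, 11.9 and 10.9% (-0.98, SE 0.38, adjusted p = 0.0912). Late Ery, which carry haemoglobin, made up 12.3, 9.10 and 20.5% against 8.80, 4.73 and 4.13% (-1.30, SE 0.48, adjusted p = 0.0912). Both erythroid classes were thus smaller with NRas G12D at all 3 time points.

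Among myeloid classes, dendritic cells made up 0.286, 0.340 and 0.309% in E2-KO and 4.66, 1.17 and 0.611% in G12D_E2-KO (log2 ratio 2.39, SE 0.73, edgeR adjusted p = 0.0869). Late GN differed most at T1, with 41.1% in G12D_E2-KO against 15.8% in E2-KO, and not at T3, where both had 16.6% (25.7 against 13.1% at T2). GMP/early GN, the granulocyte-monocyte progenitors, ran the other way, with 15.9, 24.9 and 36.7% in G12D_E2-KO against 21.0, 22.8 and 15.7% in E2-KO. The libraries of both groups overlapped in these last classes. Basophils and mast cells were higher in all 3 pairs, at 1.74, 1.88 and 2.79% against 1.31, 0.985 and 1.16% (adjusted p = 0.109). HSC/MPP, the stem cells and multipotent progenitors, made up 7.88, 10.1 and 6.92% against 6.46, 6.11 and 4.87% (0.52, SE 0.31, adjusted p = 0.232). Meg, the megakaryocytic cells, reached 9.29% at T3 against 1.61% and 3.03% at T1 and T2, while E2-KO had 2.09 to 2.58%. Leaving out G12D_E2-KO T3, 2 classes passed the test.

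**Figure D2:**
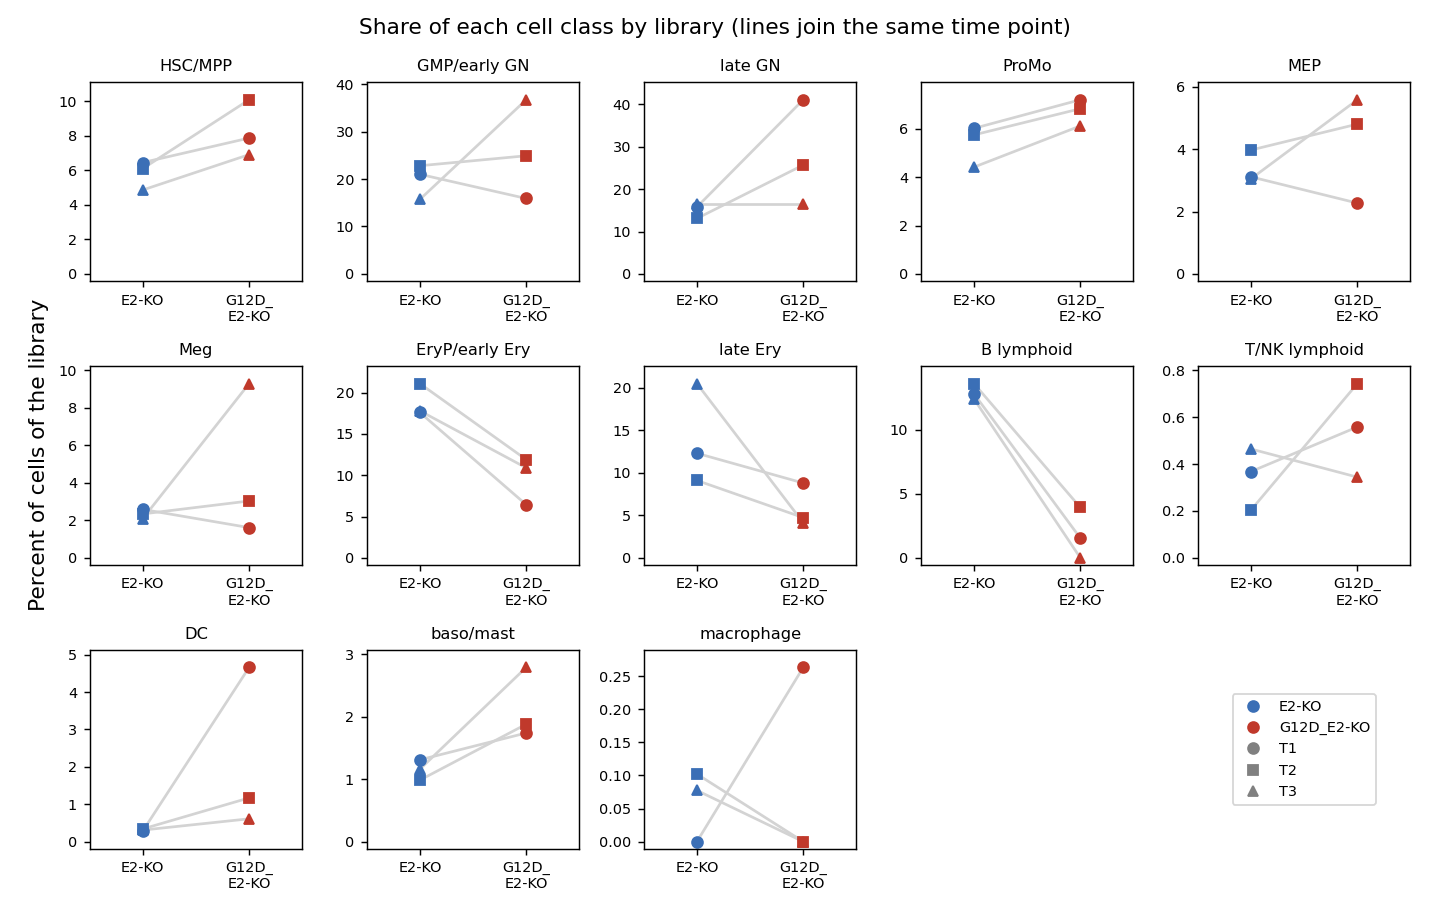
Share of cells (% of the library, linear axis with its own scale in each panel) in each of the 13 classes, 1 point per library, with grey lines that join E2-KO and G12D_E2-KO of the same time point. B lymphoid and both erythroid classes lie lower in G12D_E2-KO and dendritic, baso/mast, HSC/MPP and ProMo higher, while late GN and Meg overlap.

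Genes that mark the lineages were examined next, over all cells. Of all genes tested, 11% were higher and 7.43% lower without overlap, and 9.84% were higher and 9.25% lower at an unadjusted p under 0.05. DESeq2 called 354 of 12848 genes higher and 340 lower, the background for its counts in the lists. Without G12D_E2-KO T3, 467 of 13080 genes passed. In that fit edgeR called 2 B lymphoid genes (21 tested in the main fit), 1 erythroid gene (25) and 2 ERK outputs (19). It also called 2 immediate early genes (15), 1 gene of the RAS list (30) and 1 cytokine receptor (19). In all these lists 0 passed with that library. Counts of 1 are near the share of all genes and are not a result about the list. The B lymphoid list had a median log2 change of -2.89 over 21 members tested, against -0.003 over all genes, and 20 of 21 were lower in every G12D_E2-KO library than in every E2-KO library, where 7.43% of all genes were. None of them passed the adjusted threshold in edgeR, 18 had an unadjusted p under 0.05 and DESeq2 called 14. Ms4a1, the CD20 antigen of B cells, had 1.16, 1.16 and 1.11 CPM in E2-KO and 0.135, 0.108 and 0.130 CPM in G12D_E2-KO (log2 change -3.29, SE 0.60, adjusted p = 0.0647). Cd79a, a chain of the B cell receptor complex, went from 144, 165 and 123 CPM to 20.6, 37.9 and 0.389 CPM. Pax5, the factor that fixes B cell identity, had 18.7, 19.2 and 29.3 CPM against 2.47, 6.73 and 0 CPM. Summed over the list, levels were 2362, 2572 and 2461 CPM without NRas G12D and 1160, 1091 and 542 CPM with it.

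Erythroid genes were lower as a group. Of 25 tested, 20 were lower in all 3 libraries than in all 3, and the median log2 change was -1.07, with 0 called by edgeR, 20 at an unadjusted p under 0.05 and 16 called by DESeq2. The median was -0.71 without E2-KO T3, and 2 were called without G12D T2. Gata1, the main erythroid transcription factor, stood at 61.8, 72.8 and 69.0 CPM in E2-KO and at 33.8, 33.2 and 35.4 CPM in G12D_E2-KO (-1.03, SE 0.26, adjusted p = 0.0944). Cldn13, an erythroid membrane protein, went from 80.4, 96.5 and 106 CPM to 43.5, 44.1 and 25.0 CPM (-1.42, SE 0.32, adjusted p = 0.0886). Genes of globin and haem synthesis had a median of -0.91, with 15 of 19 lower without overlap (7.43% of all genes) and 0 called (14 at an unadjusted p under 0.05, 7 by DESeq2). Leaving out E2-KO T3 alone brought the median to -0.56. Tmem14c, a porphyrin transporter of mitochondria, went from 497, 561 and 384 CPM to 330, 279 and 235 CPM (-0.80, SE 0.16, adjusted p = 0.0823). Within the erythroid classes the picture was flat: the median of the erythroid list was 0.00 in EryP/early Ery and 0.01 in late Ery, over the same 25 genes, with 0 called in each. In the other classes the median was lower, at -0.98 in late GN, -0.72 in GMP/early GN, -0.54 in HSC/MPP, -0.49 in ProMo, -0.36 in MEP and -0.17 in Meg. Among these only ProMo had a call, Tfrc, which rose. The part of RNA from erythroid cells in these values was not tested.

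Platelet and megakaryocyte genes had a median log2 change of 1.12 over 28 tested. It was 0.26 at T1, 1.08 at T2 and 1.63 at T3. In 9 of 28 the G12D_E2-KO libraries were all higher (11% of all genes), 20 were higher at an unadjusted p under 0.05 (9.84% of all genes), 0 were called by edgeR and 12 by DESeq2. Pf4, a platelet chemokine, stood at 167, 133 and 156 CPM in E2-KO and at 155, 365 and 682 CPM in G12D_E2-KO. Ppbp, another platelet chemokine, had 2.21, 0.973 and 1.74 CPM against 2.96, 61.3 and 63.0 CPM, and Itga2b, the platelet integrin, 7.69, 6.58 and 11.4 CPM against 6.73, 17.3 and 65.1 CPM. At T1 these 3 genes were thus near the E2-KO level, and the difference lay at T2 and T3. Plek, a protein kinase C substrate of platelets, was higher at every time point, at 27.9, 41.9 and 68.7 CPM against 17.5, 15 and 22.9 CPM (1.23, SE 0.20, adjusted p = 0.0521). Within Meg the list's median was 0.55, with 10 of 25 at an unadjusted p under 0.05 (5.23% of all genes of that class) and 0 called. Leaving out G12D_E2-KO T3, the median over all cells was 0.70 and 3 members were called, and leaving out G12D_E2-KO T1 it was 1.5 and 10 were called.

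Secondary and tertiary granule genes, which maturing granulocytes express, ran the other way in time. Their median log2 change was 1.84 at T1, 1.06 at T2 and -0.38 at T3, and 0.96 over the 3. Chil3 was the 1 member called among 19, where 4 were higher without overlap (11% of all genes) and 11 had an unadjusted p under 0.05 (9.84%). It was not called without E2-KO T1 or E2-KO T2. Ngp, a granule protein, stood at 5618, 4688 and 3895 CPM in E2-KO and at 18760, 7828 and 4384 CPM in G12D_E2-KO. S100a8, a calcium-binding protein of granulocytes, had 19890, 13640 and 25100 CPM against 56390, 34000 and 12240 CPM, so that the direction turned at T3. Leaving out G12D_E2-KO T3, the list's median was 1.45 and 17 of 19 were called, and leaving out G12D_E2-KO T1 it was 0.40. Within late GN the median was 0.04, with 3 of 19 at an unadjusted p under 0.05 (4.29% of all genes of that class) and 0 called.

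**Figure D3:**
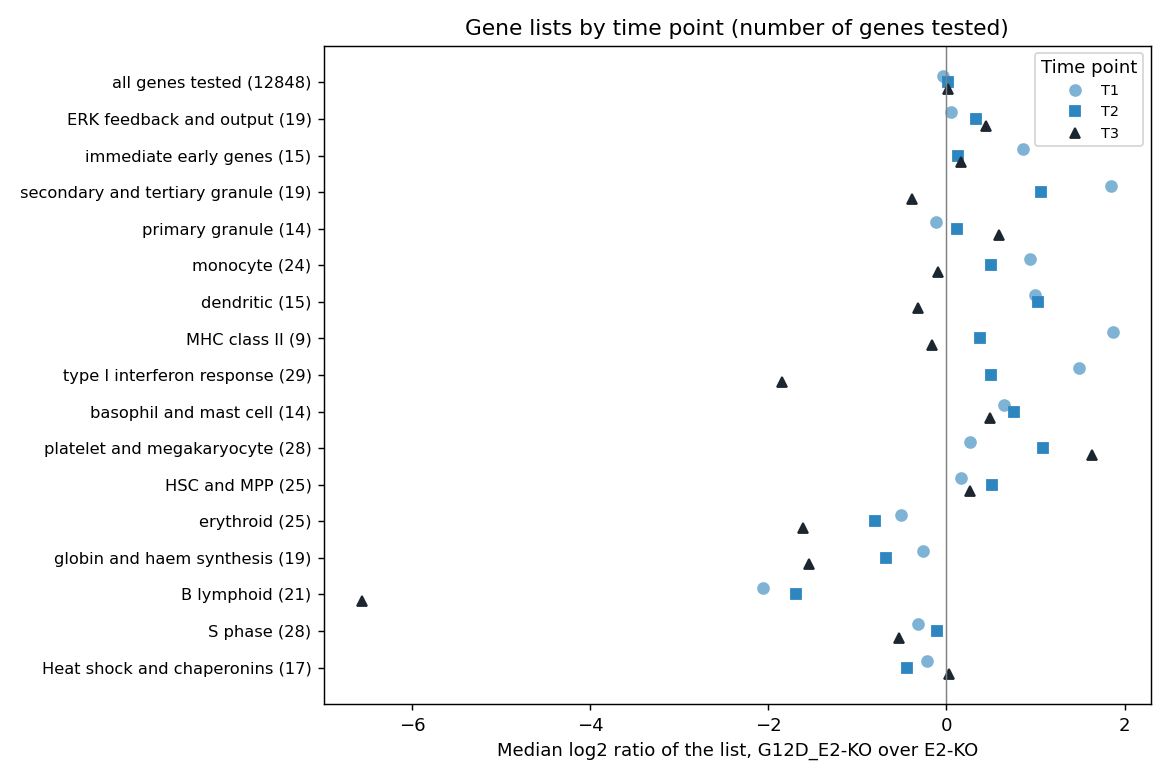
Median log2 change (G12D_E2-KO minus E2-KO) of selected gene lists and of all genes tested, with 1 point for each of the pairs at T1, T2 and T3 and the number of genes tested in brackets. Platelet genes lie higher from T1 to T3 (0.26, 1.08 and 1.63), secondary granule genes lower (1.84, 1.06 and -0.38), and B lymphoid genes are below 0 at all 3.

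Direct outputs of ERK signalling were examined as a readout of the NRas allele. Of 19 genes tested, 13 had a higher and 6 a lower estimate, 5 were higher and 3 lower without overlap (11 and 7.43% of all genes), and 0 were called in edgeR (7 higher and 3 lower at an unadjusted p under 0.05, and 3 higher and 1 lower by DESeq2). The median was 0.33, and it was 0.16 without G12D_E2-KO T3 and 0.49 without G12D_E2-KO T1. Dusp6, the phosphatase that switches ERK off, stood at 5.37, 5.38 and 7.91 CPM in E2-KO and at 12.7, 12.1 and 13.2 CPM in G12D_E2-KO (log2 change 0.99, SE 0.25, adjusted p = 0.0925). Ccnd1, the cyclin that drives entry into the cell cycle, had 8.00, 9.46 and 8.47 CPM against 14, 17.0 and 27.2 CPM (1.06, SE 0.21, adjusted p = 0.0766). Spry2, a feedback inhibitor of receptor signalling, had 9.21, 11.7 and 11 CPM against 12.9, 19.5 and 25.4 CPM (0.78, SE 0.20, adjusted p = 0.094). These 3 were higher in every G12D_E2-KO library than in every E2-KO library. Dusp1, a phosphatase of stress kinases and ERK, was lower in each G12D_E2-KO library, at 6.46, 3.82 and 4.34 CPM against 7.11, 7.56 and 11.2 CPM (-0.88, SE 0.28, adjusted p = 0.139).

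Inside classes the median of the ERK list was 0.69 in EryP/early Ery, with 6 of 13 at an unadjusted p under 0.05 (11% of all genes of that class), and 0.52 in HSC/MPP, with 5 of 10 (4.34%), all of them higher. It was 0.24 to 0.33 in GMP/early GN, late GN and ProMo. In MEP, Meg and late Ery it was 0.50, 0.46 and -0.28, over 3, 2 and 2 genes tested. In edgeR 0 were called in any class. Whether these classes differ from each other was not tested. Immediate early genes, which growth signals switch on within minutes, had a median of 0.49 over all cells, with 6 of 15 higher without overlap (11% of all genes) and 0 called (6 at an unadjusted p under 0.05, 2 by DESeq2). Klf6, a zinc finger factor of this group, had 33.0, 26 and 28.4 CPM against 14.9, 14 and 22.4 CPM (0.75, SE 0.21, adjusted p = 0.109).

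Upstream, the list of RAS proteins with their activators and inhibitors had a median of 0.09 over 30 genes (0.05 to 0.15 with 1 library left out), with 7 higher and 3 lower without overlap, against 11 and 7.43% of all genes, and 0 called (6 higher and 2 lower at an unadjusted p under 0.05, and 3 higher and 1 lower by DESeq2). Rasa2, a GTPase-activating protein that turns RAS off, had 24.6, 33.4 and 42.5 CPM with NRas G12D and 20.1, 20.1 and 19.9 CPM without it (log2 change 0.67, SE 0.15, edgeR adjusted p = 0.0886). Cbl, which tags active receptors for degradation, had 66.1, 76.6 and 84.3 CPM against 52.4, 48.0 and 54.5 CPM (0.51, SE 0.13, adjusted p = 0.0886). Among cytokine receptors, 8 of 19 were higher and 2 lower without overlap (11 and 7.43% of all genes), and 0 were called (7 higher and 1 lower at an unadjusted p under 0.05, and 3 higher and 1 lower by DESeq2). Csf2ra, the receptor chain for GM-CSF, had 35.0, 20.5 and 22.7 CPM against 17.4, 12.1 and 11.2 CPM (0.90, SE 0.20, adjusted p = 0.0886). Epor, the erythropoietin receptor, had 14.3, 12.9 and 14.2 CPM against 23.7, 26.8 and 22.9 CPM (-0.86, SE 0.27, adjusted p = 0.138). PRC2 genes other than Ezh2 did not separate the groups: of the 10 others tested, 0 were free of overlap, and the median of the list was -0.05.

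Genes of stem cells and multipotent progenitors had a median of 0.42 over 25 tested, which was 0.24 without G12D_E2-KO T2. In 10 the G12D_E2-KO libraries were all higher and in 1 all lower (11 and 7.43% of all genes), and 10 higher and 1 lower had an unadjusted p under 0.05. Ctla2a, a cysteine protease inhibitor of stem cells, had 26.7, 27.1 and 28.6 CPM in E2-KO and 30.7, 56.2 and 131 CPM in G12D_E2-KO (log2 change 1.19, SE 0.30, adjusted p = 0.0954). Flt3, the receptor of early lympho-myeloid progenitors, had 10.2, 7.37 and 10.5 CPM against 18.3, 24.0 and 13.4 CPM (0.99, SE 0.42, adjusted p = 0.243). Mllt3, a chromatin reader active in stem and erythroid cells, was lower, at 26.4, 27.3 and 20.1 CPM against 44.3, 54.5 and 41.5 CPM (-0.95, SE 0.27, adjusted p = 0.119).

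A list of 15 genes that the study discusses was also read. Some of them it chose on these samples and others on bulk RNA or prior knowledge, so the direction of the list is no independent evidence. Their median was 0.81 (0.49 without G12D_E2-KO T3), 6 were higher and 1 lower without overlap (11 and 7.43% of all genes), and 0 were called (8 higher and 2 lower at an unadjusted p under 0.05). Gem, a small GTPase of the RGK family, had 1.84, 1.85 and 1.5 CPM in E2-KO and 3.81, 7.38 and 39.9 CPM in G12D_E2-KO (log2 change 2.72, SE 0.72, edgeR adjusted p = 0.115). Its increase was largest at T3. Hmga2, a chromatin protein of fetal and leukaemic stem cells, had 8.06, 6.49 and 6.17 CPM against 14.1, 18.2 and 11.8 CPM (1.09, SE 0.41, adjusted p = 0.194). Cdkn2a, a cell cycle inhibitor that PRC2 represses in many tissues, was read in both Ezh2-deleted groups, at 6.11, 9.09 and 12.6 CPM in E2-KO and 6.87, 3.66 and 0.389 CPM in G12D_E2-KO, against at most 0.254 CPM in G12D. Cdkn2a was thus higher with NRas G12D at T1 and lower at T2 and T3, and the ranges of the groups overlapped (-1.59, adjusted p = 0.305).

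Inside the 8 classes that had 20 or more cells in each of the 12 libraries, 43 gene calls were made, of 33 genes. With no term for the time point 3 calls were made, and with only the 6 libraries 15, so most calls depended on the design of the fit. Xist accounted for 5 of the 43 calls, and it differs with the sex of the T3 pair. As a share of the genes tested in each class, the calls made up 0.181% in EryP/early Ery, 0.191% in late Ery, 0.0680% in ProMo, 0.0497% in HSC/MPP, 0.0222% in late GN, 0.0204% in MEP, 0.0191% in GMP/early GN and 0.00% in Meg. Chil3 had a higher estimate in 8 of 8 classes, with a log2 change from 0.36 in late GN to 1.73 in late Ery, and it passed in HSC/MPP, EryP/early Ery and late Ery. Lcn2, which encodes a neutrophil granule protein, had one in 8 of 8 too, from 0.05 in late GN to 1.56 in late Ery, and it passed in EryP/early Ery, late Ery and ProMo. In late GN, which hold most of it, Chil3 stood at 5090, 4660 and 4980 CPM of that class in E2-KO and at 4490, 5460 and 11300 CPM in G12D_E2-KO. In HSC/MPP it had 36.0, 24.6 and 28.3 CPM against 84.2, 56.1 and 102 CPM (log2 change 1.35, SE 0.22, edgeR adjusted p = 0.00341). Of the genes called over all cells, Chil3, Gm5483 and Stfa2 also passed inside a class. For Gm5483 and Stfa2 that class was late GN, where the filter admitted them through G12D_E2-KO, so it is no separate support. Chchd10 passed in 0 of 8 classes, with a log2 change from -1.29 in late GN to 0.08 in ProMo against -1.57 over all cells. Zyx passed in 0 of 7 classes that tested it (-0.01 in GMP/early GN to 0.81 in Meg) and Hk2 in 0 of 5 (0.36 in ProMo to 1.38 in HSC/MPP). Granule transcripts free in the droplets can enter cells of any class, and their part in these values was not tested. Some classes were merged from several clusters of WT cells, whose shares of the class differed between libraries. A late GN cluster led by Mmp8 made up 21.9, 4.3 and 6.2% of the class in G12D_E2-KO and 3.9, 3.1 and 8.8% in E2-KO. The part of such differences was not tested.

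**Figure D4:**
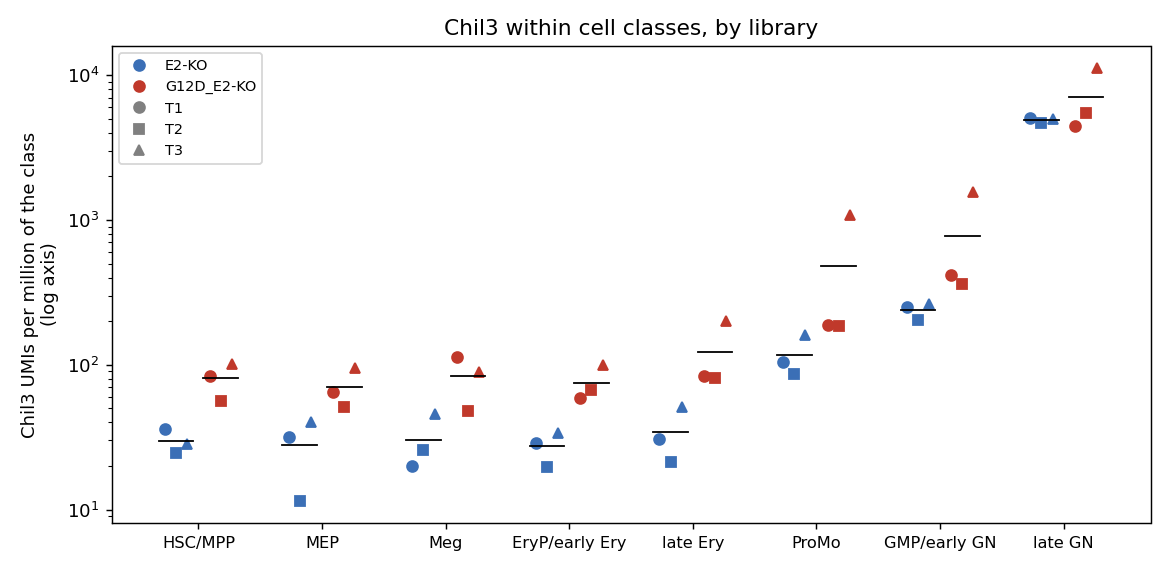
Level of Chil3 (CPM of the class, log axis) in each of 8 classes, 1 point per library, E2-KO and G12D_E2-KO. Black lines are group means. All 3 G12D_E2-KO points lie above the E2-KO points in every class plotted except late GN, which carries the highest level in both groups.

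In HSC/MPP cells the other calls were lower genes. Vpreb1 and Igll1, which together form the surrogate light chain of the pre-B cell receptor, fell there with NRas G12D. Both also had lower estimates in the 5 other classes that tested them, with 0 passing: -2.25 to -1.55 for Vpreb1 and -2.52 to -1.57 for Igll1. In HSC/MPP Vpreb1 went from 63.1, 70.4 and 26.1 CPM to 7.59, 9.14 and 1.32 CPM (log2 change -3.08, SE 0.34, edgeR adjusted p = 1.39e-05), and Igll1 from 23.2, 30.5 and 8.72 CPM to 2.76, 5.22 and 0 CPM (-2.83, SE 0.51, adjusted p = 0.0135). Over the B lymphoid list in HSC/MPP the median was -0.75, and these 2 of 14 were called. In the other classes with over 1 member tested the median was -1.30 in late GN, -1.04 in GMP/early GN, -0.78 in late Ery, -0.65 in ProMo and -0.47 in EryP/early Ery, so B lymphoid genes had lower medians in non-lymphoid classes as well. The share of B cells was also lower in these libraries, and the part of RNA from them was not tested. In GMP/early GN, Mgl2, a C-type lectin, fell from 23, 24.6 and 22.9 CPM to 7.61, 9.16 and 6.62 CPM (-1.63, SE 0.21, adjusted p = 0.00214).

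Erythroid progenitors gave the most calls. Kit, the receptor for stem cell factor, rose in EryP/early Ery from 60.2, 50 and 67.0 CPM to 90.8, 88.1 and 109 CPM (log2 change 0.74, SE 0.13, edgeR adjusted p = 0.0404). The chaperones Hsp90aa1 and Hspd1 fell there, Hsp90aa1 from 1310, 1570 and 1400 CPM to 757, 791 and 958 CPM (-0.74, SE 0.12, adjusted p = 0.029). Cycs, the cytochrome c of the respiratory chain, fell from 384, 378 and 336 CPM to 211, 255 and 233 CPM (-0.61, SE 0.12, adjusted p = 0.0495). In each of these genes, which were picked by the test, the libraries of the groups did not overlap. The share of all genes of the class without overlap was not counted. In late Ery, 6 of 15 granule genes rose, namely Pglyrp1, Ngp, Camp, Lcn2, Ifitm6 and Chil3, and 12 of 15 had an unadjusted p under 0.05 (4.90% of all genes of that class). Ngp had 868, 398 and 641 CPM there against 276, 208 and 269 CPM (1.28, SE 0.21, adjusted p = 0.00573). In ProMo, the promonocytes, Lcn2 and Wfdc21, secreted proteins of neutrophil granules and secretions, rose, as did Tfrc and Ccl5, and Cd63 fell. Lcn2 went from 81.3, 56.1 and 56.1 CPM to 215, 112 and 315 CPM (1.54, SE 0.19, adjusted p = 1.94e-05).

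NRas G12D was also compared with Ezh2 intact, in G12D against WT, which share no library with the pair above. The G12D mice carried Mx1-Cre and NRas G12D+/-, and the WT mice had no Cre, so this contrast holds Cre as well as the oncogene, which cannot be told apart in it or in the interaction. Over the 5598 genes whose log2 CPM averaged 4 or more, the log2 changes of G12D_E2-KO against E2-KO and of G12D against WT had a Pearson correlation of 0.56 and a Spearman correlation of 0.74 across genes, which are not independent replicates, and 79.3% had the same sign. Over all 12848 genes tested these values were 0.36, 0.57 and 73.6%. Of the 12 genes called with Ezh2 deleted, 0 were among the 14 (0.109%) called with Ezh2 intact. The difference of the effects was tested as an interaction, in which 12 genes (0.0934%) passed, 6 with a higher and 6 with a lower effect on the deleted background, and 461 had an unadjusted p under 0.05 (3.59%). Among the genes called in the main comparison, Gm5483 (interaction 8.06, SE 0.98, edgeR adjusted p = 0.0189) and Stfa2l1 (8.55, SE 1.19, adjusted p = 0.0469) passed it. Both met the filter on low counts only with the G12D_E2-KO libraries, as described above. For Chil3 the interaction was 1.19 (SE 0.21, adjusted p = 0.0939). The interaction calls fell to 0 when any of WT T1, WT T2, E2-KO T2, G12D T1 or G12D T3 was left out, to 2 without WT T3, 4 without E2-KO T1 or G12D T2 and 5 without G12D_E2-KO T2, and rose to 34 without G12D_E2-KO T1.

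Platelet genes had opposite medians on both backgrounds, -1.04 for G12D against WT and 1.12 for G12D_E2-KO against E2-KO, and 0 of 28 passed the interaction test. Summed over the list, levels were 714, 727 and 699 CPM in WT, 443, 487 and 492 CPM in G12D, 468, 415 and 475 CPM in E2-KO and 575, 953 and 1584 CPM in G12D_E2-KO, so that both single mutants lay below WT at every time point. Erythroid genes were lower on both backgrounds, with medians of -0.64 and -1.07. Ccnd1 and Spry2 had like estimates on both, 1.02 and 1.06 for Ccnd1 and 0.90 and 0.78 for Spry2, while Dusp6 had -0.04 with Ezh2 intact and 0.99 without it (interaction 1.04, SE 0.35, edgeR adjusted p = 0.96). The plot of both effects shows genes of at least that level.

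**Figure D5:**
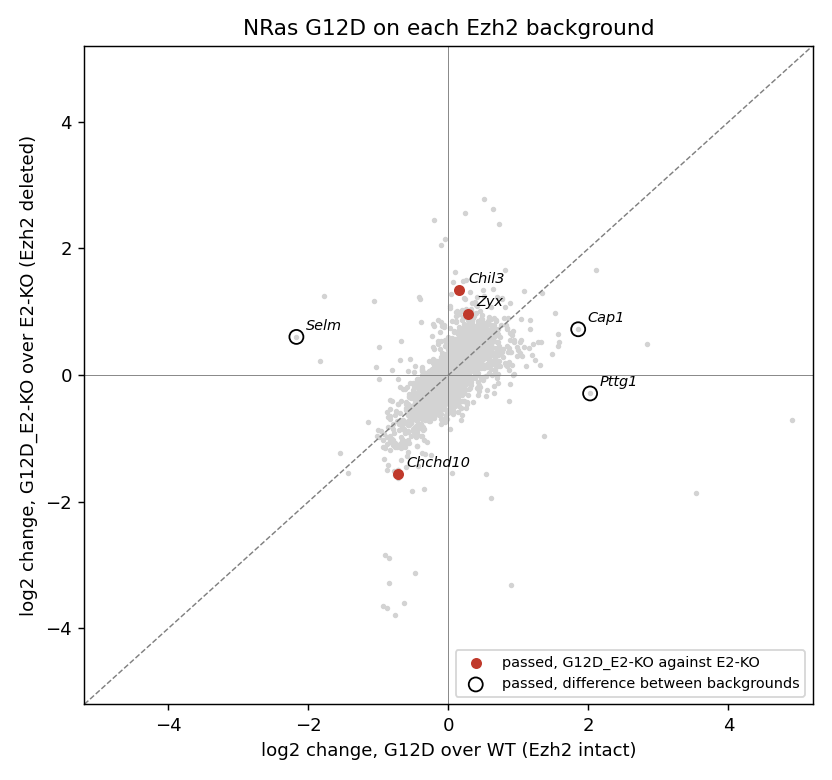
Log2 change with Ezh2 intact (G12D minus WT, x axis) and with Ezh2 deleted (G12D_E2-KO minus E2-KO, y axis), 1 point per gene whose log2 CPM averaged 4 or more (5596 of 5598 genes, with 1 outside the axes and 1 not drawn), with genes that passed the main test in red, those that passed the interaction test ringed and a dashed line at equal change. The signs are equal in 79.3% of the 5598 genes, and Chil3 lies near 0 on the x axis (0.15) and at 1.34 on the y axis.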

How the data were processed

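Count tables of 12 single-cell libraries (10x Genomics 3' chemistry) were used. The authors aligned reads with Cell Ranger to mm10, per the labels' processing notes, removed cells above 10% mitochondrial UMIs and doublets called by Scrublet, and deposited raw UMI counts per gene and cell. No further cell filter was applied, and 0 columns were left unmapped. A cell found in 2 tables by similarity of its counts was counted once, in G12D_E2-KO T1.

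UMIs were summed per library over all cells and tested with edgeR 4.0.16 (R 4.3.3; TMM, filterByExpr, robust quasi-likelihood fit) with terms for genotype and time point, in 1 fit to the 12 libraries that leaves 6 residual degrees of freedom. Tests were two-sided, with Benjamini-Hochberg adjustment and a threshold of 0.05. The biological coefficient of variation was 0.19, with TMM factors of 0.938 to 1.15. Fitted log2 changes add a prior count and are no bound for genes at 0 in a group. DESeq2 1.42.0 was an alternative. The edgeR fit over all cells was tested for the main contrast on simulated counts without a time point effect, and the other steps were not.

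WT cells were clustered (scanpy 1.11.5, Python 3.11.15, 50 principal components, 15 neighbours, Leiden resolution 2) into 28 clusters. Of these, 27 were named from marker lists and merged into 13 classes, and 1, led by Jchain, stayed unnamed. Cells of the mutants took the class of the nearest WT cell, and 97.4% of WT cells kept their class when mapped onto the other WT libraries. Names rebuilt in this way can differ from those of the study. Cell numbers per class were tested with edgeR, with all cells as the library size. Genes were tested within classes of at least 20 cells in every library.

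The members, the 36 gene lists and the tests were chosen with earlier results of these data known. Named genes were Ezh2, Nras, the called genes whose log2 CPM averaged 3 or more, the members of each list that were called or had the lowest p, 15 genes that the study discusses and the interaction calls; members added to show a group were chosen after their values were seen. A few genes that met this rule are not reported here. Sequences came from RefSeq promoter windows of GRCm38.p6 and gene positions from a GRCm38 annotation. Pairing was checked by correlating the deviations of libraries from their genotype mean: E2-KO and G12D_E2-KO correlated by 0.199 at T1, -0.245 at T2 and -0.0061 at T3. The unmatched E2-KO T3 and G12D_E2-KO T2 correlated by 0.238. By the labels the number marks a time point, and so few correlations cannot show whether libraries shared a source. Counting intervals cover counting error only.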

Additional observations from a re-analysis of the deposited data

Results flagged for a closer look

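In 12 genes the difference of G12D_E2-KO from E2-KO was unlike that of G12D from WT, which also differ in Mx1-Cre, by edgeR's interaction test, where the value given is the log2 change with Ezh2 deleted minus that with Ezh2 intact. Gm5483 (8.06) and Stfa2l1 (8.55) of the stefin A cluster are described above. Scrg1, a secreted peptide gene, had 3.34, with 1.45 ± 0.0436 CPM in E2-KO and 6.23 ± 3.77 CPM in G12D_E2-KO (SD, n = 3).

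In 8 others the genotype that stood apart was often one that the main comparison does not hold. Pttg1, the securin of mitosis, had -2.31, and its change was -0.29 with Ezh2 deleted and 2.02 with Ezh2 intact. Lyrm7, a mitochondrial assembly factor, had -2.22, with changes of -0.13 and 2.10. Gm12802, an antisense transcript whose reads cannot be told from those of the opposite gene unless strand was counted, had 6.16, with changes of 0.52 and -5.63. Selm, a selenoprotein, had 2.77, with changes of 0.60 and -2.17. Lyplal1 had -2.25, with changes of -0.50 and 1.75.

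Cap1, an actin-binding protein, had -1.13, with changes of 0.72 and 1.85, so that both had the same sign. It lies outside the naming rule and is given because it passed the interaction test. The pseudogenes Gm9726 (-6.31) and Cd1d2 (-4.23) were read at 0.697 ± 0.330 and 1.59 ± 0.904 CPM in E2-KO and at 0.0971 ± 0.0856 and 0.282 ± 0.105 CPM in G12D_E2-KO (SD, n = 3), levels at which few UMIs decide the value.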

How the results depend on the processing

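The number of genes called over all cells (12) was 694 with DESeq2, 56 without a filter on low counts, 3 for genes whose log2 CPM averaged 4 or more, 1 with the cells as deposited, 453 with library sex as a covariate and 6 with only the 6 libraries, and 0 to 467 over the fits that left out a library or a pair. With the cells as deposited, the shared cells count in both G12D T1 and G12D_E2-KO T1. The 453 were 373 higher and 80 lower, and the 694 were 354 higher and 340 lower. It was 13 with RLE size factors, 10 after thinning and 15 without haemoglobin and granule genes. Among T3 libraries only G12D_E2-KO T3 had little Xist, so beside the time point the sex covariate sets that library apart. That fit is therefore no separate adjustment for sex, and it acts as the one without G12D_E2-KO T3, which called 467. The interaction count (12) was 58 with DESeq2, 22 without a filter, 1 for genes whose log2 CPM averaged 4 or more, 2 after thinning, 0 with the cells as deposited and 0 to 34 over the fits that left out a library or a pair. Class shares called (0) were 0 to 2 over left-out libraries, with 2 without G12D_E2-KO T3. Calls within classes (43) were 15 with only the 6 libraries and 15 to 182 over left-out libraries. The causes were not tested, save that fewer libraries or genes entered some fits and that the sex covariate sets G12D_E2-KO T3 apart.

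The replicate number here is the time point, which the main fit holds as a block. With no replicate block, that is without pairing on the time point, 9 genes passed over all cells, all higher, 5 in the interaction, 0 class shares and 3 within classes. The correlations of libraries with the same number had both signs, so they did not show that the numbers pair the libraries.

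Of 3181 values of named genes over the alternatives, 17 reversed in direction. The log2 change of Xist was 0.08 with library sex as a covariate and -12.79 to 0.62 over the left-out libraries. The macrophage share reversed to -0.18 with only the 6 libraries, to -1.0 with the majority of 15 neighbours, to -0.28 at Leiden resolution 1, and ran from -3.79 to 1.02 over left-out libraries. Leaving out libraries also turned the shares of Meg (-0.09 to 1.23), MEP (-0.02 to 0.57) and GMP/early GN (0.00 to 0.64) and the genes Tapbp (-0.02 to 0.47), Mpo (-0.03 to 0.32), Lyrm7 (-0.30 to 0.16), Fabp5 (-0.11 to 0.13), Ets1 (-0.15 to 0.70) and Crip1 (-0.61 to 0.08). Leaving out 1 library turned the median of 5 of 35 gene lists, to -0.01 for primary granule, -0.06 for MHC class I, -0.11 and -0.07 for interferon gamma GTPases, -0.02 for erythroid and megakaryocytic transcription factors and 0.05 for branched-chain amino acid genes. Depth limits genes under a few UMIs per library, and 3 libraries a group cannot give an exact sign-flip p under 0.25. The stefin list among genes whose log2 CPM averaged 4 or more, and the haemoglobin and granule list where its genes were left out, had no genes left and gave no value.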

Other observations

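Antigen presentation genes were highest at the earliest time point. The 9 MHC class II genes tested had a median log2 change of 1.20, which was 1.87 at T1, 0.38 at T2 and -0.16 at T3, with 0 called and 5 at an unadjusted p under 0.05 (9.84% of all genes, higher), while 1 of 9 was higher without overlap (11% of all genes). It was 0.27 without G12D_E2-KO T1. Cd74, the chaperone of these molecules, stood at 39.5, 39.8 and 31.7 CPM in E2-KO and at 834, 117 and 34.0 CPM in G12D_E2-KO. The dendritic list had a median of 0.53, or 0.22 without G12D_E2-KO T2 and 1.25 without G12D_E2-KO T3 (0 of 15 called, 5 at an unadjusted p under 0.05, 3 higher without overlap). Clec9a and Batf3, of the cross-presenting dendritic lineage, had 11.1, 1.94 and 1.81 CPM against 0.526, 0.464 and 0.633 CPM, and 9.79, 3.02 and 0.842 CPM against 0.368, 0.510 and 0.633 CPM. Both were higher in every G12D_E2-KO library than in every E2-KO library. Xcr1, another member of the list, overlapped, at 9.29, 1.78 and 0.130 CPM against 0, 0.232 and 0.158 CPM. Of the 15 estimates of the list, 11 were higher and 4 lower. The share of dendritic cells moved with these genes, at 4.66, 1.17 and 0.611% against 0.286, 0.340 and 0.309%, and its part was not tested.

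Inflammatory genes had a median of 0.71 (0.47 without E2-KO T1), with 9 of 19 higher without overlap (11% of all genes) and 0 called (9 at an unadjusted p under 0.05, 3 by DESeq2). Tnf had 3.90, 2.21 and 3.24 CPM with NRas G12D against 1.84, 1.25 and 0.95 CPM (log2 change 1.16, SE 0.25, edgeR adjusted p = 0.0886). Among myeloid transcription factors, with a median of 0.50 and 8 of 21 higher and 1 lower without overlap (11 and 7.43% of all genes), 0 were called (9 higher and 1 lower at an unadjusted p under 0.05, 5 higher and 1 lower by DESeq2). Id2, an inhibitor of helix-loop-helix factors, had 216, 172 and 123 CPM against 82.3, 67.5 and 75.3 CPM (1.14, SE 0.22, adjusted p = 0.0766). Basophil and mast cell genes had a median of 0.66 (5 of 14 higher without overlap, 0 called, 5 at an unadjusted p under 0.05), monocyte genes 0.55 (6 of 24, 0 called, 5), and T and NK genes 1.07 (4 of 13, 0 called, 4), against 11% of all genes higher without overlap. The median of T and NK genes was 1.60 at T1, 1.5 at T2 and -0.18 at T3. Without G12D_E2-KO T3, where 467 of 13080 genes passed, it was 1.68 with 1 gene called. Primary granule genes had 0.21, with 2 of 14 higher without overlap, a share near that of all genes, and the median was -0.01 without E2-KO T3.

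Genes of DNA replication had lower estimates. In the S phase list all 28 estimates were below 0, with a median of -0.35 (-0.21 without E2-KO T3), 11 lower without overlap (7.43% of all genes), 0 called in edgeR, 16 at an unadjusted p under 0.05 and 3 by DESeq2. Fen1, a nuclease of DNA replication, had 60.8, 63.8 and 71.6 CPM against 89.8, 102 and 78.1 CPM (log2 change -0.49, SE 0.12, edgeR adjusted p = 0.0925). The mitosis list had a median of -0.23 (-0.09 without G12D_E2-KO T3), which was 0.01 at T1, -0.06 at T2 and -0.57 at T3, with 1 of 29 lower without overlap and 0 called (2 at an unadjusted p under 0.05). Heat shock genes and chaperonins had a median of -0.19, which was -0.22 at T1, -0.45 at T2 and 0.03 at T3, with a summed level at T3 of 5591 CPM in G12D_E2-KO against 4986 CPM in E2-KO. In this list 3 of 17 were lower without overlap and 0 were called (5 at an unadjusted p under 0.05, 4 by DESeq2). Without G12D_E2-KO T3, where 467 of 13080 genes passed, 4 were called. Hsp90aa1 had 381, 549 and 636 CPM against 768, 920 and 798 CPM (-0.73, SE 0.15, adjusted p = 0.0823). Erythroid cells, in which Hsp90aa1 and Hspd1 fell, were also fewer, and the part of their share was not tested.

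The other lists had smaller or less even differences, and leaving out 1 library moved several of their medians by over 1.5 times. Type I interferon genes had a median of 0.63 that was 1.49 at T1, 0.50 at T2 and -1.85 at T3, interferon gamma GTPases 0.12, MHC class I genes 0.14, branched-chain amino acid genes -0.08, and S100a genes 0.68. The Hmga2 and Lin28b list had 0.57, erythroid and megakaryocytic transcription factors 0.15, CDK inhibitors -0.46, and macrophage genes -0.47. Markers of stromal, endothelial, plasma and eosinophil cells had -1.03, and haemoglobin and granule genes together 0.80. Without G12D_E2-KO T1 the medians were 0.00 for type I interferon, -0.11 for interferon gamma GTPases, -0.06 for MHC class I, 0.15 for S100a, -1.37 for macrophage and 0.16 for haemoglobin and granule genes. Without G12D_E2-KO T2 they were 0.05 for branched-chain amino acid genes and -0.02 for the transcription factors, and the stromal, endothelial, plasma and eosinophil markers had -0.04 without E2-KO T1. The sex-linked list had 1.55, with 0 called and the T3 pair unlike in sex. Chil3, described above, was called among the granule genes. Leaving aside the transcription factors, 0 members of the other lists of this paragraph were called by edgeR. Jchain, which marks plasma cells, had 386, 503 and 710 CPM in E2-KO and 72.2, 255 and 27.9 CPM in G12D_E2-KO.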
